A study of Mus musculus with 6 samples.

Results

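The MYC and MAX network is a family of transcription factors that pair through a shared helix-loop-helix and leucine zipper region. Its 10 measured genes were chosen by symbol: Myc, Mycn, Max, Mxd1, Mxd3, Mxd4, Mxi1, Mnt, Mga and Mlx. Each symbol matched 1 row among the 53733 named rows of the count table, and 9 of the 10 genes were among the 13652 rows that held enough counts to be tested. MYC and MYCN bind DNA as pairs with MAX at E-box sequences and raise transcription of genes for ribosome production, metabolism and growth. MXD1, MXD3, MXD4, MXI1, MNT and MGA also pair with MAX but repress, and MLX is a second partner protein that joins MXD1, MXD4, MNT and the nutrient-sensing Mondo factors. In blood cells MYC is tied to proliferating progenitors, and MXD1 is known to rise as granulocytes mature.

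The cells were a mouse acute myeloid leukaemia line made by retroviral transduction of foetal liver cells. Both groups carried constitutive MLL-AF9, a leukaemia fusion gene, with a luciferase, and FLT3-ITD, an activated receptor tyrosine kinase, with DsRED under a doxycycline-inducible promoter. NSG mice, which lack lymphocytes but keep their own myeloid and red cells, received the cells by tail vein and doxycycline for 96 h. In the OFF group (3 mice) doxycycline was then removed for 48 h so that FLT3-ITD was depleted, and in the ON group (3 mice) it was continued. Viable leukaemic cells were sorted from the bone marrow, and the 3' ends of their mRNAs were sequenced in 1 library per mouse. Removal of doxycycline and loss of FLT3-ITD cannot be told apart in this design. The sources used here do not give the ages or sexes of the mice, or whether the line is a single clone.

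The 6 libraries held between 8335234 and 9316361 counts on named rows. A level is given in CPM, the count scaled to a common library size by the trimmed mean of M values (TMM). A single count was worth at most 0.124 CPM. Endogenous Flt3 did not differ by the test (log2 fold change 0.27, edgeR adjusted p = 0.387). Its row does not check the transgene, whose reads were not analysed here. Of the markers for the leukaemia line, Ptprc, Hoxa9, Meis1, Mpo and Elane were present in every library, whereas the progenitor receptor Kit averaged 0.295 CPM in OFF and 0.269 CPM in ON. OFF replicate 3 stood apart from OFF replicates 1 and 2 on the second principal component of log2 CPM (-29.3 against 23.9 and 14.4). Fold changes of Mxd1, Mga, Huwe1 and Adgre1 are also given without this library, whereas summed marker levels include it.

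The promoters of the network genes are shown first because several hold the sequence that the network itself binds. The letters CACGTG, the E-box, read the same on both strands and were searched from 250 bases before to 50 bases after each RefSeq start site (GRCm38.p6). They occurred in 4 of the 9 members with a promoter in the table (Max, Mlx, Mnt and Mxd4). The table had no entry for Myc. In 2 lower genes of the MYC-activated list, the mitochondrial chaperone Hspd1 and the nucleoside diphosphate kinase Nme1, the same letters were found, and these are shown for comparison. The E-box is in capitals in each of the following stretches, which read 5′ to 3′ along the gene's strand.
Max, chr12:76962236-76962261, minus strand: tgagcccggtCACGTGttagggggcc
Mlx, chr11:101087240-101087265, plus strand: tgggttggatCACGTGactgagcctc
Mnt, chr11:74830791-74830816, plus strand: ccacccaagcCACGTGtgcgcgcgcg
Mxd4, chr5:34187914-34187939, minus strand: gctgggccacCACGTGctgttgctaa
Hspd1, chr1:55088308-55088333, minus strand: ccggctgggaCACGTGaaaaggccgc
Nme1, chr11:93968039-93968064, minus strand: cttgatacgcCACGTGggctcgcctt

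The E-box began 3 bases before the start site in Max and 40 bases before it in Mlx, whereas it lay 123 bases before it in Mnt and 219 bases before it in Mxd4. The letters were found for 12.2% of tested genes with a promoter in the table and for 8.09% of all genes there. For the MYC-activated list the share was 35.5% of 31 genes. A match is a description of letters and not a measured binding site. A search for TGTTTAC, the core sequence bound by FOXO factors, on both strands found it in 1 member, Mxi1, where it was present in reverse complement in 1 of 3 listed promoters. It is shown with the match in capitals because Mxi1 was among the genes that rose. These letters occurred for 3.17% of tested genes, counted over all listed promoters of a gene, and in 2.63% of the promoters of tested genes. The promoter window with the match begins at base 53329445, inside the gene, which begins at base 53310518. Reads from 3' ends do not tell which start site was used.
Mxi1, chr19:53329454-53329480, plus strand: gcgcggagaaGTAAACAaaccgcgcgc

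The STAT sequence TTCNNNGAA was found in no member promoter, against 8.18% of tested genes, and the E2F sequence TTTCGCGC only in Mycn, against 0.768% of tested genes. Both strands were searched for each, and no match says only that these letters are not in this window.

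After FLT3-ITD was depleted, Myc fell about 3-fold while 4 of its antagonists, Mxd4, Mnt, Mxd1 and Mxi1, rose. Of these 4 rises only that of Mxd4 kept its call under all 16 alternative settings. Mxd1 lost its call in 11 of them, Mnt in 6 and Mxi1 in 5. Max, the partner that both sides need, and Mga, the largest of the repressors, fell moderately, with calls lost in 3 and 2 settings. Mxd3 and Mlx did not pass the test, and Mycn was at or below 1 count per library. Of the 9 tested members, 4 were higher and 3 lower in OFF at an adjusted p of 0.05 by edgeR's quasi-likelihood test, adjusted over all tested rows. Over all 13652 tested rows, 34.8% were called, 17.3% higher and 17.5% lower. Values of OFF and ON did not overlap for 8 of the 9 members, 4 with all OFF libraries above ON and 4 with all below. Over all tested rows this was so for 48.3%, with 23.8% above and 24.5% below. The median size of the log2 fold change was 0.44 for the 9 members and 0.33 for all tested rows.

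**Figure D1:**
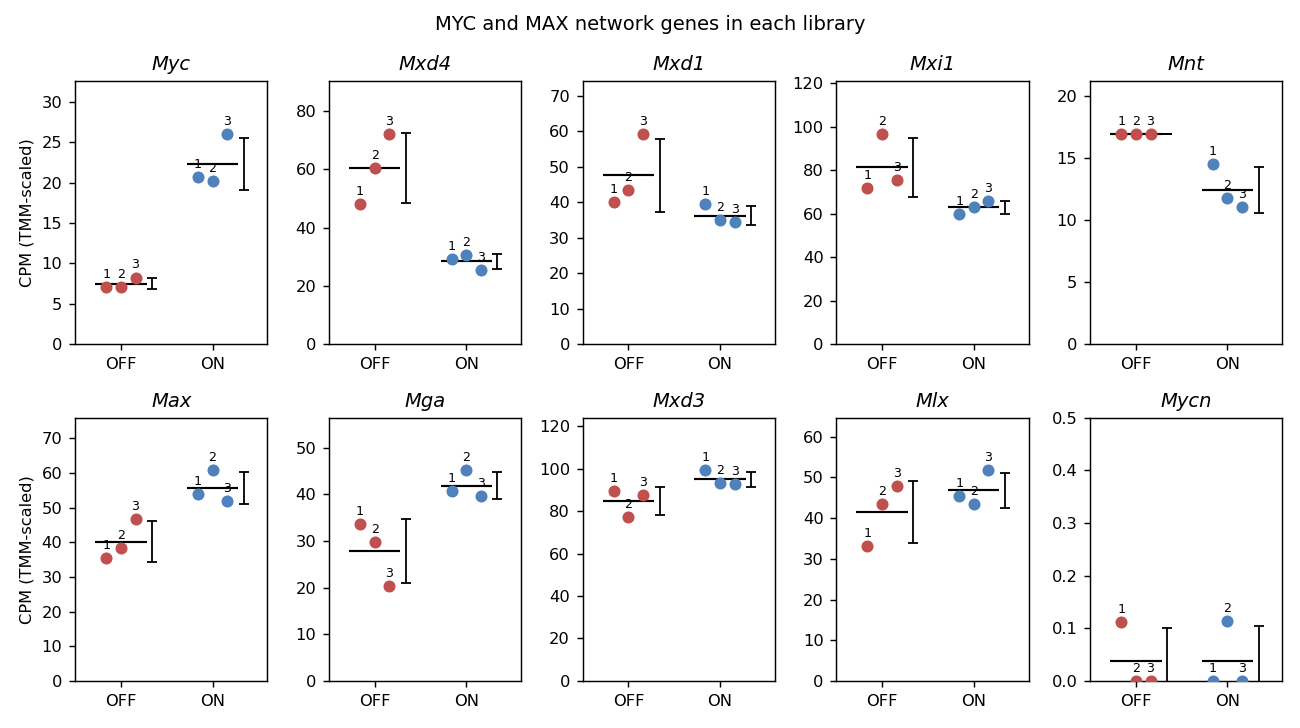
Level of each network gene in CPM (y axis, from 0, its own scale per gene) in the 3 OFF and 3 ON libraries (points numbered by replicate), with the mean as a line and the SD as a bar. Myc lies between 7.02 and 8.25 CPM in OFF and between 20.2 and 26.0 CPM in ON, and Mxd4 shows the opposite order.

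Myc (chromosome 15, 61985391 to 61990374, plus strand, GRCm38) encodes the activating factor of the network. It stood at 7.11, 7.02 and 8.25 CPM in the OFF libraries and at 20.7, 20.2 and 26.0 CPM in the ON libraries. The highest OFF library was thus well under the lowest ON library, and the OFF libraries were close to each other. The mean was 7.46 ± 0.687 CPM in OFF and 22.3 ± 3.26 CPM in ON (SD, n = 3 each). The fitted change was 2.98-fold lower in OFF (log2 fold change -1.58, SE 0.16, edgeR adjusted p = 6.05e-06). By size of change Myc ranked 444 among the 13652 tested rows. These are modest counts, 202 in all in OFF and 568 in ON, and the call was kept under all 16 alternative settings, with log2 fold changes between -1.65 and -1.46.

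Pvt1, a long noncoding RNA gene that begins 47612 bases downstream of Myc on the same strand, was looked at because of its position and was outside the rule for named genes. It had 1.11, 1.34 and 0.880 CPM in OFF and 2.17, 2.96 and 3.60 CPM in ON, with no overlap. Its log2 fold change was -1.38 (SE 0.35, edgeR adjusted p = 0.00650).

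Mycn, the family member best known from neural and embryonic tissue, was close to absent. It had 1 count in OFF replicate 1, 1 count in ON replicate 2 and none in the other libraries, so no fold is given. A count of 0 allows a true value of up to 3 counts, or at most 0.372 CPM. Such a limit covers counting error only, because amplified reads carry no molecular identifiers here. Mycl and Bmyc, related genes outside the member list, were likewise too low to be tested, with group means of at most 0.0733 CPM.

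Max (chromosome 12, 76937269 to 76962201, minus strand) makes the partner that MYC, the MXD proteins, MNT and MGA all need to bind DNA. It had 35.3, 38.3 and 46.8 CPM in OFF, against 53.8, 60.7 and 52.0 CPM in ON. The groups did not overlap, with OFF replicate 3 nearest to ON. The difference was a fall of 1.38-fold (log2 fold change -0.47, SE 0.13, edgeR adjusted p = 0.00974). It fell short of the threshold without OFF replicate 2 (adjusted p = 0.0527), without ON replicate 2 (0.0739) and in the authors' log2 values (0.0551).

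Counts of Myc per count of Max in the same library were 0.201, 0.183 and 0.176 in OFF and 0.384, 0.332 and 0.501 in ON. The ratio of activator to partner transcripts was therefore lower in every OFF library than in any ON library. With 3 mice against 3, an exact two-sided permutation test cannot give a p below 0.1, so ratios are described without a test.

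Mxd4 (chromosome 5, 34173883 to 34187720, minus strand), a MAX-binding repressor, had the greatest rise of the tested members. It had 48.2, 60.5 and 72.2 CPM in the OFF libraries and 29.1, 30.6 and 25.4 CPM in the ON libraries. Every OFF library was above every ON library, and the OFF libraries differed more among themselves. Mxd4 was 2.12-fold higher in OFF (log2 fold change 1.08, SE 0.14, edgeR adjusted p = 5.74e-05), and the call was kept under all 16 alternatives (0.94 to 1.22). Its 3' end shares 514 exonic bases with Gm42846, an antisense gene, which rose by 1.21 on the log2 scale (edgeR adjusted p = 3.08e-04). Counts of Mxd4 were 1.85 to 2.50 times those of Gm42846 in each library. The authors' strand setting in counting is not given, so reads of these overlapping genes cannot be told apart.

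Mxd1 (chromosome 6, 86647042 to 86669161, minus strand), the repressor linked to terminal myeloid maturation, had 40.0, 43.4 and 59.3 CPM in OFF. In ON it had 39.4, 34.9 and 34.5 CPM, so that OFF replicate 1 and ON replicate 1 were almost level. The mean was 47.6 ± 10.3 CPM in OFF and 36.2 ± 2.74 CPM in ON (SD, n = 3 each). It rose by 0.39 on the log2 scale (SE 0.14, edgeR adjusted p = 0.0457), close to the threshold. Without OFF replicate 3 the log2 fold change was 0.21 (adjusted p = 0.145), and the call was lost in 11 of 16 alternatives, with adjusted p between 0.0610 and 0.165. These include DESeq2, limma-voom, the replicate block and leaving out any library except OFF replicate 1.

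Mxi1 (chromosome 19, 53310518 to 53375810, plus strand), another MAX-binding repressor of the MXD group, had 71.7, 96.9 and 75.6 CPM in OFF and 59.8, 63.2 and 66.0 CPM in ON. OFF replicate 2 was the high library, and the groups did not overlap. It was 1.29-fold higher in OFF (log2 fold change 0.37, SE 0.12, edgeR adjusted p = 0.0317). Without OFF replicate 2 the log2 fold change was 0.23 (adjusted p = 0.177), and the call was also lost without any 1 of the ON libraries (adjusted p = 0.0793 to 0.135) and in the authors' log2 values (0.0728).

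Mnt (chromosome 11, 74830920 to 74845725, plus strand), the broadly expressed antagonist of MYC, had the most even values in OFF, at 16.9 CPM in each library. In ON it had 14.5, 11.7 and 11.0 CPM. All ON libraries were below the OFF libraries, and the change was 1.36-fold (log2 fold change 0.44, SE 0.15, edgeR adjusted p = 0.0295). The call was lost without OFF replicate 2, ON replicate 2 or ON replicate 3 (adjusted p = 0.0754, 0.117 and 0.146), by DESeq2 (0.0721) and with no filter on low counts (0.0531).

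Mxd3 (chromosome 13, 55325168 to 55329823, minus strand), the MXD gene tied to S phase and proliferating cells, gave a log2 fold change of -0.16 and did not pass (SE 0.11, edgeR adjusted p = 0.251). It had 89.6, 77.3 and 87.6 CPM in OFF and 99.2, 93.1 and 92.9 CPM in ON. All OFF libraries were below all ON libraries, by a small margin. The 3' end of Mxd3 shares 105 exonic bases with Prelid1 on the opposite strand, and counts of Mxd3 were 0.861 to 0.944 times those of Prelid1 in all 6 libraries. The 2 rows thus moved almost together, and reads of the pair cannot be told apart.

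Mga (chromosome 2, 119897228 to 119969581, plus strand) encodes a very large protein that carries a T-box besides its MAX-binding region and is part of a Polycomb complex. It had 33.7, 29.7 and 20.4 CPM in OFF and 40.8, 45.1 and 39.6 CPM in ON. OFF replicate 3 was the low library, and the groups did not overlap. Mga fell by 0.58 on the log2 scale (SE 0.16, edgeR adjusted p = 0.00977). Without OFF replicate 3 the log2 fold change was -0.40 (adjusted p = 0.00776). The call was lost without ON replicate 2 (adjusted p = 0.0604) and in the authors' log2 values (0.0660).

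Mlx (chromosome 11, 101087277 to 101092207, plus strand), the partner of the Mondo factors, was the only tested member whose groups overlapped. It had 33.1, 43.4 and 47.9 CPM in OFF and 45.3, 43.5 and 51.7 CPM in ON (log2 fold change -0.18, SE 0.14, edgeR adjusted p = 0.348). Its 3' end shares 385 exonic bases with Psmc3ip on the opposite strand, and counts of Mlx were 1.22 to 1.67 times those of Psmc3ip. Mlxip, the gene of MondoA, gave a log2 fold change of 0.36 without passing (edgeR adjusted p = 0.0981), and Mlxipl, the gene of ChREBP, averaged 0.185 CPM in OFF and 0.117 CPM in ON. Of 3 listed targets of MLX and MondoA none passed in either direction, beside 34.8% called over all tested rows. The thioredoxin inhibitor Txnip gave -0.08 and the arrestin Arrdc4 -0.36, with unadjusted p = 0.721 and 0.0808, and the hexokinase Hk2 gave -0.31 with unadjusted p = 0.0179. DESeq2 and limma-voom called 0 of them, and the only call in another setting was 1 lower gene without OFF replicate 2.

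**Figure D2:**
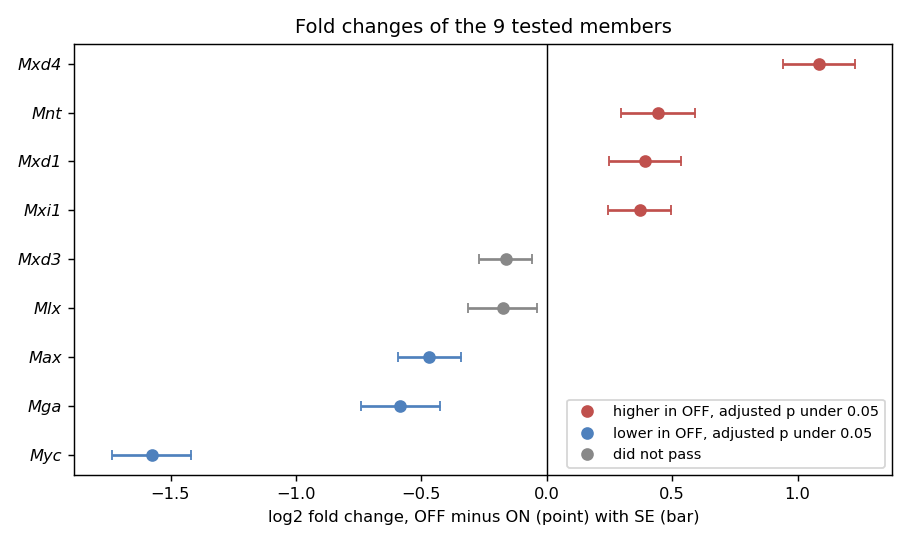
Log2 fold change of OFF minus ON (x axis) for the 9 tested network genes, with the SE as a bar. Myc at -1.58 and Mxd4 at 1.08 are the outermost points, and the other calls lie between -0.58 and 0.44.

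Mxd4 was also higher relative to Mxd1, Mxd3, Mxi1 and Mnt within a library. Counts of Mxd4 per count of Mxd1 were 1.21, 1.39 and 1.22 in OFF and 0.739, 0.879 and 0.737 in ON. Per count of Mxd3, Mxd4 gave 0.715 ± 0.155 in OFF and 0.299 ± 0.0282 in ON (SD, n = 3 each). Per count of Mxi1, Mxd4 gave 0.750 ± 0.179 in OFF and 0.452 ± 0.0579 in ON, and per count of Mnt 3.56 ± 0.702 in OFF and 2.31 ± 0.302 in ON (SD, n = 3 each). In all 4 ratios the OFF and ON libraries did not overlap. Mxd4 had the greatest rise of the tested members, so these ratios largely restate that rise and are no separate evidence of it. The limits given for reads shared with Gm42846 and Prelid1 hold for these counts of Mxd4 and Mxd3 too.

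Summed transcripts of the MXD group and Mnt were more numerous per Myc transcript in every OFF library than in any ON library. The repressor Mga, at 27.9 ± 6.84 CPM in OFF and 41.8 ± 2.91 CPM in ON (SD, n = 3 each), was left out of these sums. Mnt was left out of the summed level in CPM. Summed counts of Mxd1, Mxd3, Mxd4, Mxi1 and Mnt per count of Myc were 37.5, 42.0 and 37.8 in OFF and 11.7, 11.6 and 8.82 in ON. Beside the fall of Myc by about 3-fold, the summed level of Mxd1, Mxd3, Mxd4 and Mxi1 was 274 ± 22.8 CPM in OFF and 223 ± 4.47 CPM in ON (SD, n = 3 each). Per count of Myc, Mxd4 gave 8.05 ± 1.10 in OFF and 1.30 ± 0.287 in ON, Mxd1 6.33 ± 0.791 in OFF and 1.65 ± 0.298 in ON, and Mnt 2.28 ± 0.198 in OFF and 0.569 ± 0.139 in ON (SD, n = 3 each). Mxd3, which did not rise, still gave 11.4 ± 1.06 in OFF and 4.33 ± 0.666 in ON per count of Myc (SD, n = 3 each). The fall of Myc in the denominator thus separates the groups even for a gene that did not rise. These ratios compare transcripts, and protein was not measured.

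**Figure D3:**
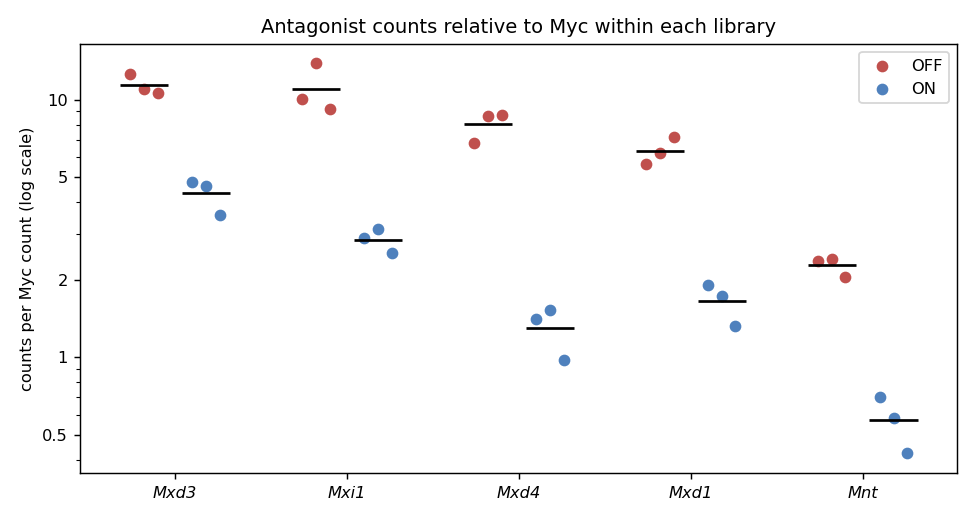
Counts of 5 antagonist genes per count of Myc in the same library (y axis, log scale), with OFF left of ON and a line at each mean. For each gene all 3 OFF libraries lie above all 3 ON libraries, with Mxd4 at 8.05 in OFF and 1.30 in ON on average. Because Myc fell and is the denominator, this holds also for Mxd3, which did not rise.

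A sorted library can hold RNA of other marrow cells, and the gate used for the sort is not given. In bulk RNA, fewer cells of a type and less RNA per cell cannot be told apart. Of 9 granulocyte maturation markers, 7 were higher and 1 lower in OFF, beside 17.3% higher and 17.5% lower over all tested rows. Their summed level ranged from 3574 to 8273 CPM in OFF and from 2448 to 2595 CPM in ON. Most of this sum was 1 gene, Camp, at 2460, 4068 and 6515 CPM in OFF and 1659, 1560 and 1572 CPM in ON. The sum, like Camp, was highest in OFF replicate 3, which also had the highest Mxd1 and Mxd4 and the lowest Mga. Not all members followed the direction of their change. Among the OFF libraries, OFF replicate 3 also had the highest Myc (8.25 CPM), Max (46.8 CPM) and Mlx (47.9 CPM). Mxi1 was highest in OFF replicate 2 (96.9 CPM), and Mnt was even over the OFF libraries. The neutrophil surface protein Ly6g gave 2.04, the integrin Itgam 1.17 and the secreted Retnlg 1.40, while the neutrophil surface gene Cd177 gave -0.44 on the log2 scale. That last call was lost in 4 of 16 alternatives, among them without OFF replicate 2, ON replicate 2 or ON replicate 3 (adjusted p up to 0.104).

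All 6 monocyte and macrophage markers were higher, beside 17.3% of all tested rows. Their summed level was 327 to 637 CPM in OFF, highest in OFF replicate 3, and 105 to 156 CPM in ON. Ms4a6c rose by 1.83, the macrophage receptor Adgre1 by 2.00 and the chemokine receptor Ccr2 by 0.95 on the log2 scale. Without OFF replicate 3 the log2 fold change of Adgre1 was 1.64 (edgeR adjusted p = 2.80e-06). Of 7 erythroid markers the 5 that could be tested were higher, again beside 17.3% of all tested rows. The summed level of the 7 was 577 to 933 CPM in OFF and 150 to 212 CPM in ON. The adult globin Hbb-bs rose by 2.21, Hbb-bt by 2.30 and Hba-a2 by 2.02 on the log2 scale, whereas the erythroid factor Klf1 averaged 0.479 CPM in OFF and 0.460 CPM in ON. Whether the granulocyte and monocyte markers came from leukaemic cells or from other marrow cells cannot be told apart. Their part, and that of erythroid cells, in the changes of the network members and the MYC-activated genes was not tested.

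Markers of B cells summed to at most 0.496 CPM, those of T cells to at most 0.990 CPM and those of megakaryocytes to at most 2.53 CPM in any library, with Cd8a at 0 counts throughout. Markers of stroma and endothelium summed to 7.35 to 10.4 CPM in OFF and 5.58 to 9.45 CPM in ON, most of it Pecam1, which leukocytes also express, and Lepr was at 0 counts. The collagen gene Col1a1 had 5 counts in all in OFF and 23 in ON, without overlap, and was too low to be tested. Among the markers of the leukaemia line, 4 of 5 tested genes rose, beside 17.3% higher over all tested rows. Mpo gave 1.41, Elane 0.95 and Ptprc 0.65 on the log2 scale, all 3 being myeloid or leukocyte genes that normal marrow cells share. The other riser, Meis1, gave 0.37 (edgeR adjusted p = 0.0284), and Hoxa9 gave 0.08 without passing (edgeR adjusted p = 0.543). Leaving out single libraries left 3 to 4 of these genes higher.

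Genes that MYC is known to activate were mostly lower. Of 37 tested genes of that list, 35 fell and none rose, with a median log2 fold change of -1.06 against 0.00432 over all tested rows. At an unadjusted p under 0.05 edgeR gave 37 lower and 0 higher, and DESeq2 and limma-voom each called 36 lower and 0 higher. The background of lower calls was 17.5%. The list repeats genes of an earlier analysis of these libraries and is no independent evidence of its direction. The amino acid transporter Slc7a5 had 5.22, 4.90 and 3.74 CPM in OFF and 25.9, 36.2 and 38.8 CPM in ON (log2 fold change -2.86, edgeR adjusted p = 4.83e-07). The ribosome assembly factor Rrs1 gave -1.59 and the spermidine synthase Srm -2.09 on the log2 scale. The 2 members that did not pass were the cyclin-dependent kinase gene Cdk4 (-0.28, edgeR adjusted p = 0.0966) and the translation factor gene Eif5a (-0.37, edgeR adjusted p = 0.0537). Both hold an E-box in a listed promoter. The telomerase gene Tert was too low to be tested.

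Genes that MYC is known to repress did not move one way. Of 7 tested genes 1 rose and 1 fell, beside 17.3% higher and 17.5% lower over all tested rows, and the median was -0.09. Cdkn1b, which encodes the cell cycle inhibitor p27, had 37.5, 45.4 and 41.5 CPM in OFF and 26.3, 30.2 and 23.7 CPM in ON (log2 fold change 0.63, edgeR adjusted p = 0.00147). Cdkn1a, which encodes the inhibitor p21 and is repressed by MYC through the factor MIZ1, had 36.2, 28.8 and 31.5 CPM in OFF and 85.8, 96.9 and 84.7 CPM in ON (log2 fold change -1.47, edgeR adjusted p = 1.06e-06). A second higher gene was called without OFF replicate 1, with the replicate block and with no filter on low counts. A second lower gene was called without OFF replicate 3 or ON replicate 3.

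**Figure D4:**
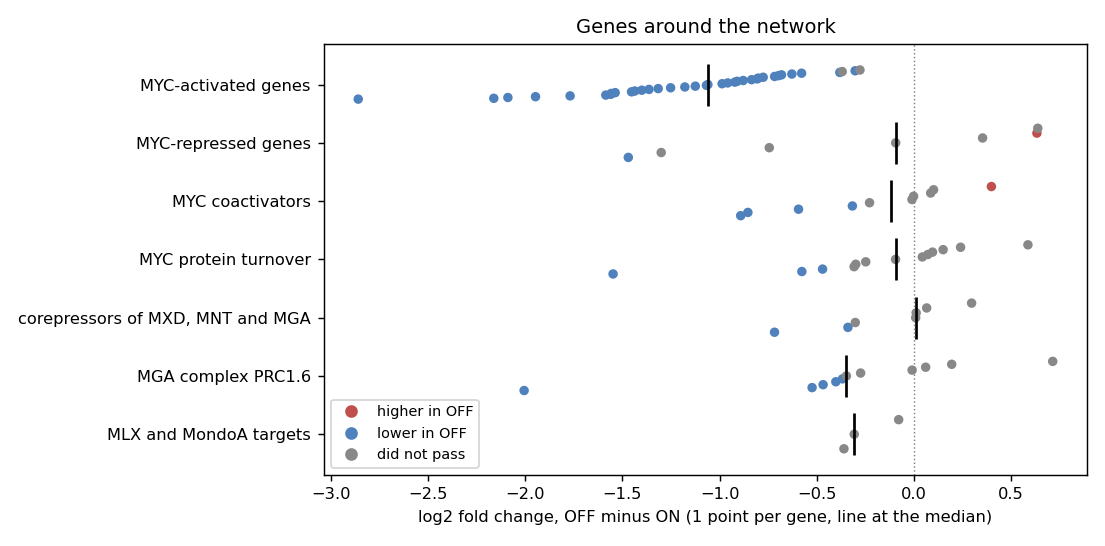
Log2 fold change of OFF minus ON (x axis) for each tested gene of 7 lists around the network (rows), coloured by the test, with a black line at each list's median. The MYC-activated genes lie almost wholly to the left with a median of -1.06, whereas the medians of the other lists lie between -0.35 and 0.01.

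Cofactors through which MYC activates transcription fell in 4 of 10 tested genes and rose in 1, with a median of -0.12. The shares over all tested rows were 17.5% lower and 17.3% higher. The helicases Ruvbl1 and Ruvbl2 gave -0.89 and -0.59 and the acetyltransferase Kat2a -0.85 on the log2 scale. Trrap, the scaffold of these acetyltransferase complexes, had a mean of 24.5 ± 1.17 CPM in OFF and 18.5 ± 1.31 CPM in ON (SD, n = 3 each), a rise of 0.40 on the log2 scale (edgeR adjusted p = 0.0232). The call of Trrap was lost in 7 of 16 alternatives, with adjusted p up to 0.116, including without OFF replicate 2 or any 1 of the ON libraries. Leaving out ON replicate 1 left 2 lower cofactors, and Ruvbl2 lost its call (adjusted p = 0.0683).

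Of 13 tested genes for the turnover of the MYC protein, 3 fell and none rose, with a median of -0.09. Over all tested rows 17.5% were lower and 17.3% higher. At an unadjusted p under 0.05 edgeR gave 1 higher, DESeq2 and limma-voom called 0 higher, and leaving out OFF replicate 3 called 1 higher. Usp36, a nucleolar deubiquitinase that stabilises MYC, had 16.5, 14.1 and 13.1 CPM in OFF and 41.5, 43.4 and 43.3 CPM in ON (log2 fold change -1.55, edgeR adjusted p = 1.10e-06). The ubiquitin ligase Huwe1 had 95.6, 76.2 and 48.6 CPM in OFF and 104, 114 and 111 CPM in ON (log2 fold change -0.58). OFF replicate 3 was its low library, and without it the log2 fold change was -0.35 (edgeR adjusted p = 0.00913). Huwe1 lost its call without OFF replicate 2 or any 1 of the ON libraries and in the authors' log2 values (adjusted p up to 0.109). Leaving out ON replicate 2 left 1 lower gene. Fbxw7, the ligase subunit best known for degrading MYC, gave -0.31 without passing (edgeR adjusted p = 0.113).

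Of 7 tested genes for corepressors recruited by the MXD proteins and MNT, 2 fell and none rose, with a median of 0.00949, beside backgrounds of 17.5% lower and 17.3% higher over all tested rows. Ncor1 was the 1 gene higher at an unadjusted p under 0.05, and DESeq2 and limma-voom called 0 higher. The scaffolds Sin3a and Sin3b, which the MXD proteins contact directly, gave 0.07 and 0.01 on the log2 scale (edgeR adjusted p = 0.718 and 0.969). The deacetylase Hdac2 gave -0.34 (edgeR adjusted p = 0.0244). The call of Hdac2 was lost without OFF replicate 2, without any 1 of the ON libraries and in the authors' log2 values, with adjusted p up to 0.111. Ncor1 gave 0.30 (edgeR adjusted p = 0.0520), and 1 corepressor was called higher without OFF replicate 3 and with a filter of 10 CPM in 3 libraries.

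Of 11 tested partners of MGA in its Polycomb complex 5 fell and none rose, with a median of -0.35, beside 17.5% lower over all tested rows. Leaving out ON replicate 1 left 3 lower. At an unadjusted p under 0.05 edgeR gave 1 higher, the ubiquitin ligase gene Ring1 (0.71, edgeR adjusted p = 0.0601). DESeq2 and limma-voom called 0 higher, whereas the authors' log2 values and leaving out OFF replicate 2 each called 1 higher. Pcgf6, a subunit found only in this form of the complex, had 2.89, 3.23 and 2.31 CPM in OFF and 12.1, 10.8 and 11.0 CPM in ON (log2 fold change -2.01, edgeR adjusted p = 6.90e-06). Wdr5, a histone-binding subunit that MYC also uses, gave -0.52 and the heterochromatin protein gene Cbx3 -0.47. The DNA-binding partner E2f6 gave -0.37 (edgeR adjusted p = 0.0485).

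The tested genes nearest in pattern to Myc, Max and Mxd1 were found by distance between mean-centred log2 CPM over the 6 libraries, with the mean level required to be 10 CPM or more. For Myc these were Ripor2, Ifrd1, Nip7, Uck2 and Timm9, at distances between 0.260 and 0.375 and with log2 fold changes between -1.61 and -1.40. For Max they were Ifitm6, Slc25a5, Xbp1, Usp42 and Kmt2b, at 0.108 to 0.150. For Mxd1 they were Gnal, Ankrd46, Ubald2, Ostf1 and Tsc2, at 0.105 to 0.127. The choice by distance fixes that these genes follow the libraries of the member. Gnal, the nearest to Mxd1, had 41.9, 44.6 and 60.8 CPM in OFF and 41.5, 39.0 and 35.5 CPM in ON.

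**Figure D5:**
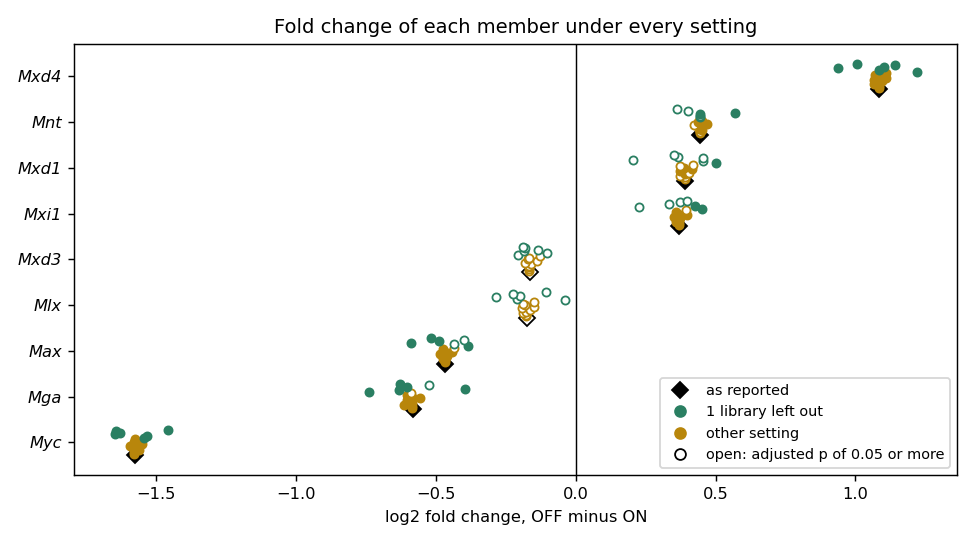
Log2 fold change of OFF minus ON (x axis) of the 9 tested members as reported (diamonds) and under each of 16 alternatives (circles), open where the adjusted p was 0.05 or more. Every setting for Myc and Mxd4 is filled and every setting for Mxd3 and Mlx is open, while Mxd1, Mxi1, Mnt, Max and Mga hold both kinds.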

How the data were processed

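Per the labels' protocols, DNase-treated RNA went into the Lexogen QuantSeq kit, which reads mRNAs from their 3' ends. The submitters' processing notes name HISAT2 2.0.4, featureCounts in Subread 1.6.3, limma 3.42.2 and build mm10. The deposited raw counts held 54838 rows, of which 1105 without a name (0.145% to 0.172% of counts) were left out. The authors' deposited log2 values for 12287 genes served as an alternative.

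Counts were filtered with filterByExpr (minimum count 10, total 15), scaled by TMM and fitted with edgeR 4.0.16 in R 4.3.3 (robust glmQLFit, glmQLFTest, OFF against ON, no covariate). P-values were adjusted by the Benjamini-Hochberg method over 13652 rows at 0.05. The SE is the log2 fold change divided by the square root of F. limma 3.58.1 and DESeq2 1.42.0 were alternatives. On simulated data for OFF against ON with 200 genes changed 2-fold among 13440, 96.5% of those were recovered. The changed genes were drawn from those above a minimum mean level. Changes under 2-fold, which most member calls were, were not simulated. Replicates of a group differed beyond sampling noise (chi-square per degree of freedom 2.98 to 39.5). Coordinates are from GENCODE M21 (GRCm38).

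The members and lists were chosen with earlier results of these data known. The text names every member, the 3 called genes of smallest p per list and direction, the 5 nearest genes in pattern, and neighbours that share exons with a member; some of these genes are not reported here. Genes outside this rule (Pvt1, Sin3a, Sin3b, Fbxw7, E2f6, Ncor1, Ring1, Col1a1, Cdk4, Eif5a, Tert, Kit and the MLX targets among them) were chosen after their values were seen. The values of Camp, Meis1 and Hoxa9 were added in the same way.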

Additional observations from a re-analysis of the deposited data

How the results depend on the processing

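Under 16 alternatives every tested member kept its direction. Leaving out each library in turn gave 1 to 4 members higher, 1 to 3 lower and 3293 to 5444 rows called. DESeq2 on the same rows and with its own filter gave 2 members higher, and the authors' log2 values gave 2 higher and 1 lower, with Myc and Mxd4 among the calls each time. The cause of these differences was not tested. Same-numbered OFF and ON replicates did not deviate together (correlations of 0.0348, -0.0759 and -0.0504), so the numbers were not taken as a pairing. With a replicate block 4403 rows were called, 3 members were higher and 3 lower, and Mxd1 lost its call (adjusted p = 0.0634). CPM on total counts moved no member's group mean by more than its SD. At this depth changes of Mycn were not detectable.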

Other observations

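Among tested genes with a RefSeq promoter, 1066 held CACGTG in the window from 250 bases before to 50 after the start site, and 7660 did not. Of those with the letters, 24.0% were lower in OFF and 17.8% higher, with a median log2 fold change of -0.04. Of those without them, 17.6% were lower in OFF and 19.6% higher (median log2 fold change 0.04). This is a description of letters with no test, and the base composition of these promoters was not measured.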
